A study of Mus musculus with 3 samples.

Results

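The inhibitors of DNA binding Id1, Id2, Id3 and Id4 and the homeobox genes Msx1 and Msx2 were followed in single cells of developing mouse back skin. These 6 genes were listed by name as transcription regulators that respond to bone morphogenetic proteins (Bmps), and all 6 were found by symbol among the 19165 genes of the table, which holds 16235 cells. The cells came from wild-type C57BL/6 male skin at 2 embryonic ages, E13.5 (5962 cells) and E16.5 (5208 cells), and at birth (P0, 5065 cells), with no transgene or treatment in any group. Each stage is 1 library of pooled animals, so stage and library cannot be told apart and no test was run. The embryonic skin was dissociated with trypsin and the P0 skin with collagenase IV, so digestion and stage cannot be told apart either.

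Bmps are secreted ligands that bind paired type I and type II receptors at the cell surface. The receptors phosphorylate Smad1, Smad5 or Smad9, which enter the nucleus with Smad4 and bind regulatory DNA of target genes. Id genes are among the most direct of these targets. Id proteins hold a helix-loop-helix domain without the basic region that contacts DNA, and they pair with E proteins (the products of Tcf3, Tcf4 and Tcf12) and keep them off DNA. Msx1 and Msx2 encode homeodomain proteins that mostly repress transcription. In skin, Bmp signalling acts in the spacing of hair placodes, in the dermal papilla, in hair shaft and root sheath differentiation and in blood vessels, and loss of Msx2 is known to disturb the hair shaft.

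Id1 (ENSMUSG00000042745.9) lies at chr2:152736251-152737410 on the plus strand of mm10. Id2 (ENSMUSG00000020644.9) lies at chr12:25093799-25097140 on the minus strand. Id3 (ENSMUSG00000007872.3) lies at chr4:136143497-136145755 on the plus strand. Id4 (ENSMUSG00000021379.2) lies at chr13:48261228-48266026 on the plus strand, where the annotation also places A330033J07Rik and Gm49291 on the other strand. Msx1 (ENSMUSG00000048450.10) lies at chr5:37820485-37824583 and Msx2 (ENSMUSG00000021469.9) at chr13:53466884-53473074, both on the minus strand. All 6 are protein coding.

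The 250 bases before the RefSeq start of Id4 (chr13:48260866-48261115, plus strand) and of Msx1 (chr5:37824586-37824835, minus strand) are shown because the results on pericyte-like and inner root sheath-like cells turn on these 2 genes and neither window holds an annotated exon. The windows of Id2, Id3 and Msx2 run into annotated exons. They were read from the RefSeq promoter table of GRCm38.p6, 5′ to 3′, with the GC-rich Smad element GGCGCC in capitals. The element is its own reverse complement, so 1 search covers both strands.
Id4: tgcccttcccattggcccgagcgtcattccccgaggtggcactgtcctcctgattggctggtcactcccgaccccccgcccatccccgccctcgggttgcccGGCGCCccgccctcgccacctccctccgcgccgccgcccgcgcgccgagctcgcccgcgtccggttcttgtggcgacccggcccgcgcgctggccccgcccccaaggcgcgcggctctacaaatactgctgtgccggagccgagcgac
Msx1: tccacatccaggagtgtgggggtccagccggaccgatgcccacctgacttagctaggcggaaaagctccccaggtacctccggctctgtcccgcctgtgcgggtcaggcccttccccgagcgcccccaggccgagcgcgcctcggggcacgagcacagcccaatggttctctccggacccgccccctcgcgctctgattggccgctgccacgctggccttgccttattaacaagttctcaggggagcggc
The Id4 window held 1 GGCGCC at 148 bases before the RefSeq start, which lies upstream of the gene start given above, and a GC content of 75.6%. The Msx1 window held none, with a GC content of 68.0%. Of the windows not shown, that of Id2 held 1 GGCGCC, at 231 bases before its RefSeq start. Those of Id3 and Msx2 held none, and no window was available for Id1. Among the 32544 windows of this length that remained after repeated sequences and 1 chromosome were left out, 9.648% held the element. The match is a description of these letters, and Smad binding was not measured.

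Transcripts were counted by unique molecular identifiers (UMIs), with 1 UMI for each captured molecule. The 3 libraries held between 46599806 and 66239195 UMIs, and the median UMIs a cell were 7066.5, 11021 and 6797 in the order of the stages. Pairs of libraries shared 32 to 44 cell barcodes. Cells of each library were clustered without the 6 genes and without the Bmp pathway genes, and a cluster was called dermal-like, endothelial-like and so on from fixed marker genes other than these. Levels are the UMIs of a gene summed over all cells of a class divided by all UMIs of that class, as CPM (parts in 1000000), with an exact 95% Poisson interval in brackets. Differences are log2 ratios after adding 10 CPM to both levels, and 2-fold marks a log2 difference of 1. A gene was compared where both groups together held at least 50 of its UMIs. Every interval covers counting error only and says nothing of the spread between cells or between animals. Levels of a gene are compared between classes and never between genes. In comparisons between stages the median log2 difference over all genes lay between -0.19 and -0.03, and the values below are read against that shift.

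All 12 markers of the condensate and papilla list were detected in both classes so named, at a summed level of 2790 CPM in condensate-like cells against 613 CPM in other dermal-like cells of E16.5, and 3868 CPM in papilla-like cells against 812 CPM in other dermal-like cells of P0. Clusters left without a name held 18.0% of the cells of E13.5, 16.1% of E16.5 and 13.8% of P0, and unnamed clusters among the epithelial cells held a further 4.95%, 1.44% and 8.02%. Condensate-like cells were not named at E13.5, and neither were pericyte-like or placode or germ-like cells. The basal interfollicular-like class of E13.5 is 1 cluster of 64 cells with 9 of 10 basal markers raised. Its leading genes hold Dkk4 of the placode or germ list, in first place, and Trp63 and Krt15 of its own list. Basal interfollicular-like was the 1 name that an epithelial cluster could take without raised markers of its list. At E16.5, 3 of its clusters (389 of its 574 cells), 2 of them led by cell division genes, had under 3 of the 10 basal markers raised over other epithelial cells, although all 10 were detected in the class. Values without these cells are given beside the results that rest on them.

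**Figure D1:**
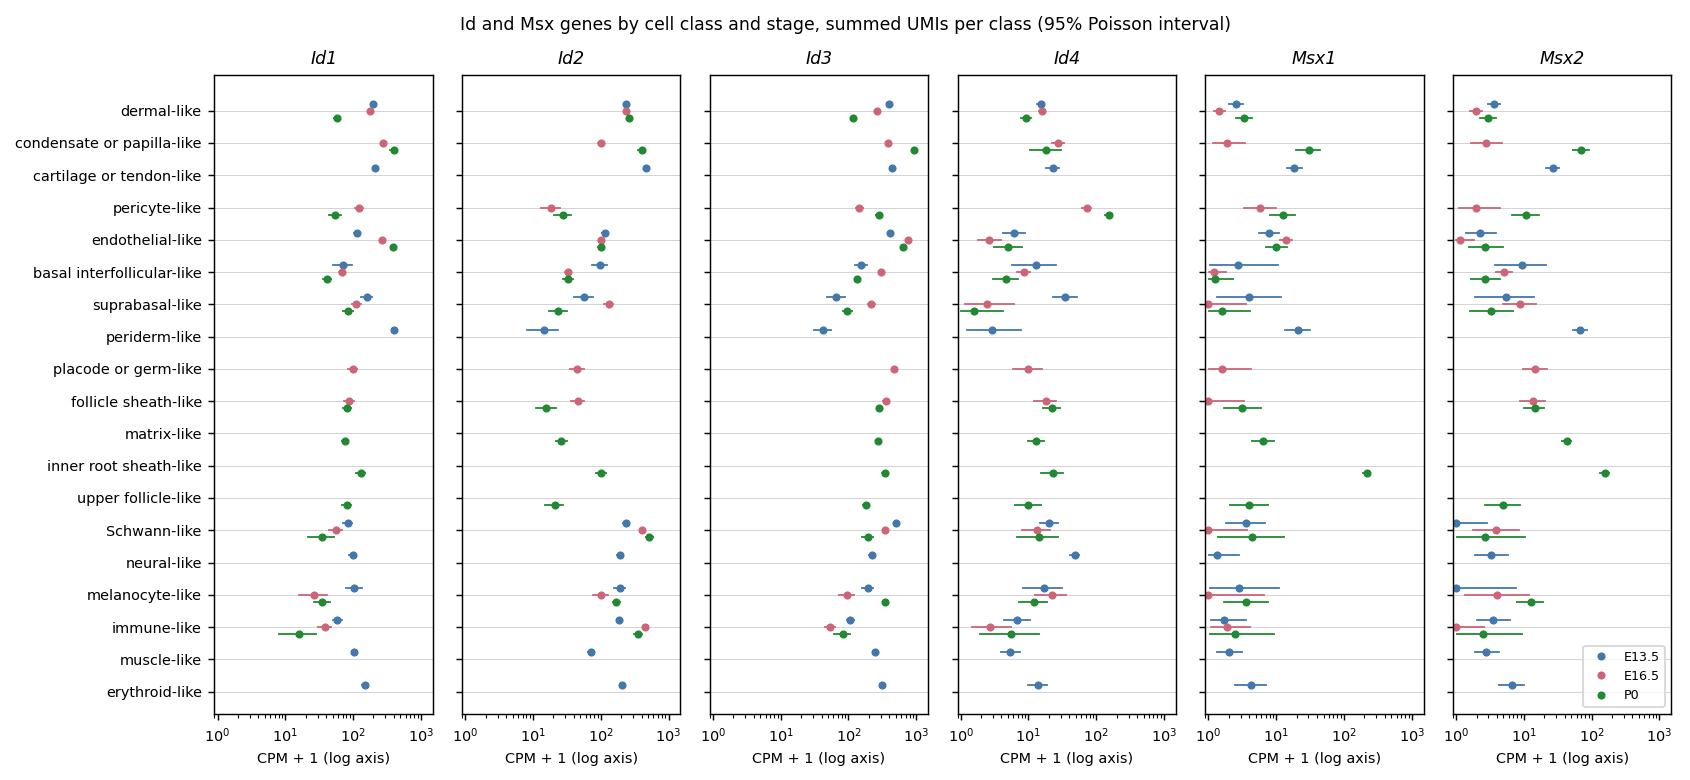
Level of each gene (CPM plus 1, log axis) in each class of at least 50 cells at E13.5 (blue), E16.5 (red) and P0 (green), with points for the class sum and lines for the 95% Poisson interval. Msx1 and Msx2 reach 215 and 154 CPM in inner root sheath-like cells of P0, and Id4 reaches 152 CPM in pericyte-like cells of P0.

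The plot of levels by class and stage shows that each gene had a distribution of its own. Id3 and Id1 were broad. At P0 papilla-like and endothelial-like cells held the most of both, while at E13.5 Id1 was highest in periderm-like and Id3 in Schwann-like cells. Id2 was high in dermal-like, Schwann-like and immune-like cells and low in epithelial-like and pericyte-like cells. Id4 had its upper levels in pericyte-like and neural-like cells. Msx1 and Msx2 were near 0 in most classes.

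The dermal papilla is the cluster of fibroblasts that instructs the hair follicle, and the dermal condensate is its embryonic precursor. The question of the first comparison was how the 6 genes differ between these cells and the remaining dermis. At P0, papilla-like cells (96 cells) held 397 CPM of Id1 [355 to 443], and other dermal-like cells (1942 cells) held 56.0 CPM [52.0 to 60.3]. For Id3 the papilla-like level was 915 CPM [851 to 983] and the dermal-like level 117 CPM [111 to 123]. Both genes were thus several times higher in papilla-like cells, with log2 differences of 2.63 [2.44 to 2.80] for Id1 and 2.87 [2.74 to 2.99] for Id3. Msx2 stood at 68.9 CPM against 1.94 CPM, a log2 difference of 2.72 [2.36 to 3.07]. Msx1 stood at 29.5 CPM against 2.33 CPM, a log2 difference of 1.68 [1.22 to 2.14], which came to 0.80 where each cell was assigned on its own markers instead of by its cluster. These 2 Msx levels rest on 56 and 24 UMIs in the papilla-like cells.

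Together 4 of the 6 genes were at least 2-fold higher in papilla-like cells, where 7.91% of the 10117 genes tested were that much higher and the median log2 difference over all genes was 0.19. Id1 ranged from 1.41 to 2.80 and Id3 from 1.08 to 2.96 over 10 alternative ways of setting the classes and levels, and both remained past 2-fold in each. Id2 was 401 CPM against 263 CPM, a log2 difference of 0.59 [0.42 to 0.75]. Its direction depended on how the cells were assigned, with values from -1.43 to 1.35 over the alternatives. Dermal-like clusters of P0 themselves ranged from 78.2 to 435 CPM of Id2. Id4 was 17.2 CPM against 8.31 CPM, on 14 UMIs in the papilla-like cells.

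The pathway around these genes differed in the same cells. All 4 Bmp ligand genes with enough counts were past 2-fold higher in papilla-like cells, where 7.91% of all genes were. Bmp3 was 514 CPM against 3.89 CPM, Bmp7 630 CPM against 9.09 CPM and Gdf10 378 CPM against 2.88 CPM. Bmp4 was 704 CPM against 36.2 CPM. Among the secreted antagonists, Fstl1 was lower by 2-fold (491 against 1115 CPM), and Nog, which encodes the antagonist noggin, stood at 72.6 CPM in papilla-like cells and 9.48 CPM in condensate-like cells of E16.5. Of 6 other Bmp response genes tested 4 were higher. None of 3 Smad genes or 3 E protein genes was past 2-fold, and 1 of 7 receptor genes was higher.

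A list of genes induced by tissue dissociation summed to 11721 CPM in papilla-like cells of P0 against 6446 CPM in the rest of the dermis. Of its 16 genes 4 were past 2-fold higher, where 7.91% of all genes were, and 1 was lower. A proliferation list stood at 183 CPM against 1026 CPM, with 8 of 10 genes past 2-fold lower, where 4.21% of all genes were. The part of either in the Id and Msx levels was not tested.

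At E16.5, condensate-like cells (379 cells) had levels of Id1, Id3 and Id4 within 2-fold of those in other dermal-like cells (2070 cells). Id1 was 275 CPM [258 to 293] against 180 CPM [174 to 185], a log2 difference of 0.59 [0.49 to 0.68]. Id3 was 382 CPM [362 to 404] against 265 CPM [259 to 272], a difference of 0.51 [0.43 to 0.59]. Both were higher in the condensate-like cells by less than 2-fold. Id2 was the 1 of 4 genes tested past 2-fold, in a comparison where 3.06% of all genes were that much lower. It stood at 100 CPM [90.0 to 111] against 238 CPM [232 to 245], a difference of -1.17 [-1.32 to -1.03]. This difference shrank to -0.18 with cells assigned on their own markers. Msx1 and Msx2 held 3 and 6 UMIs in the condensate-like cells and were not compared. The ligand genes Bmp3 (198 against 7.40 CPM), Bmp4 (444 against 30.1 CPM) and Bmp7 (216 against 20.6 CPM) were past 2-fold higher in these cells. Of all genes 2.73% were that much higher. A proliferation list was lower here too, with 6 of 10 genes past 2-fold.

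The condensate-like class joined 2 clusters that did not carry the same Id levels. In the larger cluster, of 299 cells led by Bmp4 and Foxd1, Id1 was 295 CPM and Id3 was 336 CPM. In the smaller cluster, of 80 cells led by Bmp3, Inhba and Sox2, Id1 was 176 CPM and Id3 was 607 CPM. Id2 was 109 and 59.9 CPM in the same order, and Id4 was 19.1 and 63.2 CPM. Id3 and Id4 were thus higher, and Id1 and Id2 lower, in the smaller cluster. The papilla-like cells of P0 formed 1 cluster, led by Rspo1, Gdf10, Bmp3 and Inhba.

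**Figure D2:**
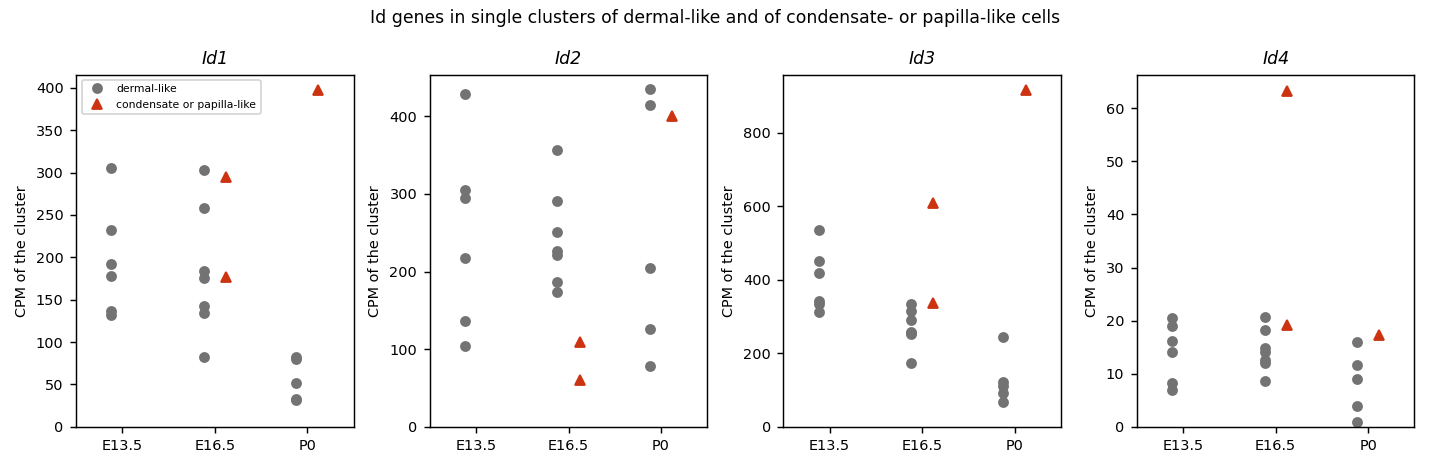
CPM of Id1, Id2, Id3 and Id4 in single clusters, with dermal-like clusters as grey circles and condensate-like (E16.5) or papilla-like (P0) clusters as red triangles. At P0 the papilla-like cluster lies above all 5 dermal-like clusters for Id1 (31.4 to 82.5 CPM) and Id3 (66.7 to 244 CPM), and for Id2 it lies within their range.

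Between stages, Id2, Id3 and Msx2 were past 2-fold higher in papilla-like cells of P0 than in condensate-like cells of E16.5, 3 of 5 genes tested against 5.62% of all genes that were higher. The log2 differences were 1.90 [1.69 to 2.11] for Id2, 1.24 [1.11 to 1.37] for Id3 and 2.75 [2.33 to 3.11] for Msx2. With cells assigned 1 by 1, Id2 and Id3 turned to -0.75 and -0.21, and Id1 went from 0.52 to -0.97, so for these 3 genes the direction depended on how the cells were picked. Id3 was also under 2-fold, at 0.75 to 0.89, under 4 further alternatives. In the remaining dermis Id1 and Id3 were lower at P0. Dermal-like Id1 was 198, 180 and 56.0 CPM over the 3 stages. Dermal-like Id3 was 400, 265 and 117 CPM. From E16.5 to P0 the log2 differences were -1.52 [-1.62 to -1.42] and -1.12 [-1.20 to -1.04], where 2.92% of all genes were lower by 2-fold and the median over all genes was -0.16. Both came to just under 2-fold (-0.998 and -0.94) in cells with at least 2500 genes. Dermal-like Id2 was nearly level, at 232, 238 and 263 CPM. The dissociation list in dermal-like cells was 887, 2731 and 6446 CPM at the 3 stages, and its part in these differences was not tested.

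**Figure D3:**
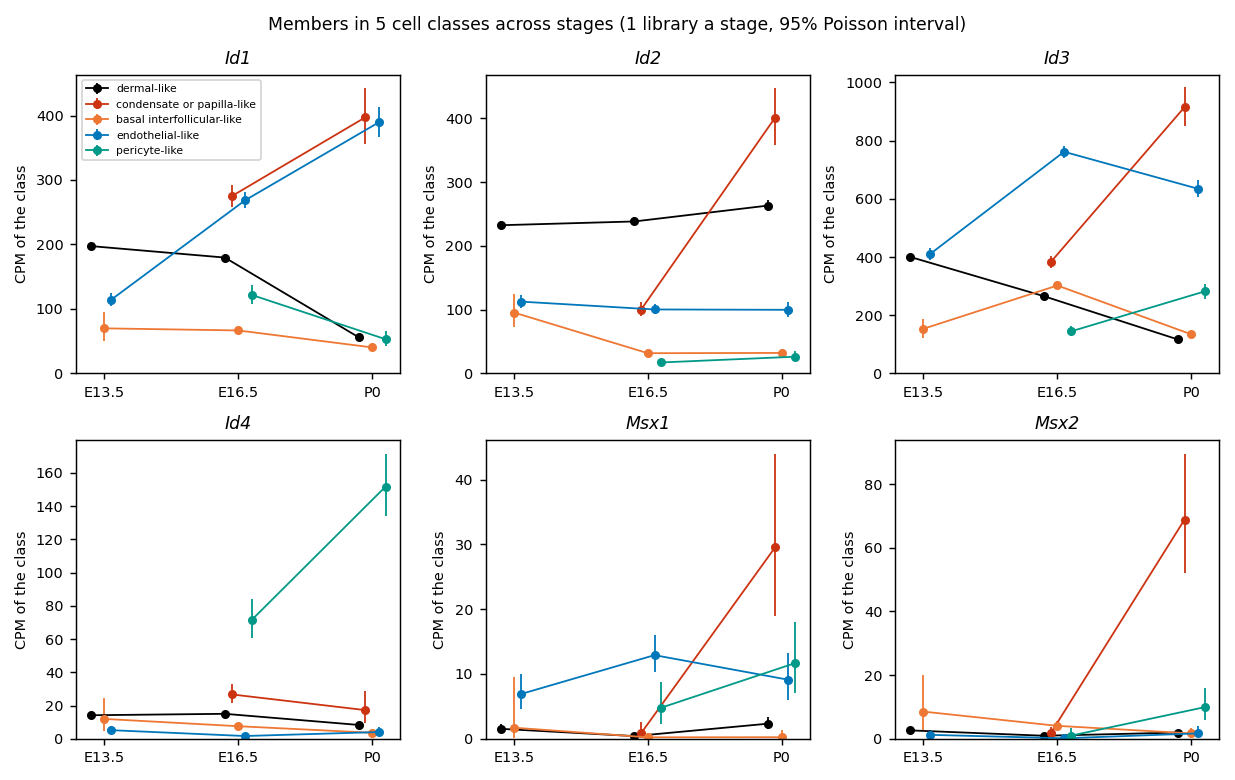
CPM of each gene at E13.5, E16.5 and P0 in dermal-like, condensate- or papilla-like, basal interfollicular-like, endothelial-like and pericyte-like cells, with 95% Poisson intervals and 1 library a stage. Id1 and Id3 are lower at P0 than at E16.5 in dermal-like cells (180 to 56.0 and 265 to 117 CPM) and higher in papilla-like than in condensate-like cells, an order that turned for Id1 and Id3 with cells assigned 1 by 1.

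Blood vessels need Bmp signals through the endothelial receptor Acvrl1 and its co-receptor Eng. Endothelial-like cells numbered 377, 351 and 255 at the 3 stages. Their Id1 was 114 CPM [104 to 125], 268 CPM [256 to 281] and 389 CPM [367 to 413] in that order. Their Id3 was 411 CPM [391 to 431], 762 CPM [741 to 783] and 635 CPM [606 to 664]. At E16.5 Id3 was higher in endothelial-like cells than in any other class, and at P0 only papilla-like cells were above them. Against all other cells of the library, Id3 had a log2 difference of 0.34 at E13.5, 1.46 [1.42 to 1.51] at E16.5 and 1.63 [1.56 to 1.71] at P0. For Id1 the differences were -0.48, 0.75 and 2.23 [2.13 to 2.32]. At E13.5 none of the 6 genes was past 2-fold, where 4.16% of all genes were. At E16.5 Id3 and Msx1 were higher (4.94% of all genes) and Id4 lower (5.46%), and at P0 Id1 and Id3 were higher (6.33%) and Msx2 lower (6.49%). The Msx2 difference of -1.05 came to -0.95 or -0.91 under 2 alternatives.

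Msx1 was detected in endothelial-like cells at each stage, at 6.89, 12.9 and 9.10 CPM. At E16.5 these cells held 86 of the 115 Msx1 UMIs of the library, and the log2 difference was 1.13 [0.95 to 1.31]. It ranged from 0.81 to 3.23 over the alternatives, 3 of which left it under 2-fold. Msx2 there was 1.23, 0.15 and 1.69 CPM. Id4 was low too, at 5.17, 1.65 and 4.05 CPM. Id2 was close to 100 CPM at E16.5 and P0.

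In both embryonic libraries the endothelial-like cells fell into blood vessel-type and lymphatic-led clusters. At E13.5 the cluster of 152 cells led by Aplnr and Plvap held 617 CPM of Id3, 180 CPM of Id1 and 13.9 CPM of Msx1. The cluster of 225 cells led by Ccl21a and Mmrn1, genes of lymphatic vessels, held 258 CPM of Id3, 65.4 CPM of Id1 and 1.71 CPM of Msx1. At E16.5 the larger cluster (307 cells) held 295 CPM of Id1 and 15.1 CPM of Msx1, and the lymphatic-led cluster (44 cells) held 111 CPM of Id1 and no Msx1 UMI. In both libraries the lymphatic-led cells were the lower for Id1, Id3 and Msx1. A lymphatic-led cluster of 116 cells at P0 stayed without a name and held 160 CPM of Id1 and 371 CPM of Id3, so the endothelial-like class of P0 holds blood vessel-type cells alone and the stages do not hold the same mixture. Among pathway genes Eng (165, 390 and 398 CPM), Acvrl1 (26.8, 71.7 and 94.7 CPM) and the pseudoreceptor gene Bambi (63.2, 80.0 and 90.0 CPM) were past 2-fold higher than in other cells at all 3 stages. Smad1 was 145, 158 and 197 CPM.

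Pericytes wrap small vessels and share markers with smooth muscle. Id4 had its highest class level there, at 71.5 CPM [60.4 to 83.9] in 180 pericyte-like cells of E16.5 and 152 CPM [134 to 171] in 242 cells of P0. At P0 dermal-like cells held 8.31 CPM. The log2 differences were 1.70 [1.48 to 1.93] and 3.14 [2.93 to 3.35]. Id2 was lower than in dermal-like cells at both stages, at 17.3 and 26.3 CPM, with differences of -3.19 [-3.49 to -2.87] and -2.91 [-3.23 to -2.59]. Over the 10 alternatives Id4 stayed between 1.23 and 2.18 at E16.5 and between 3.13 and 4.04 at P0. Id3 was 144 CPM against 265 CPM at E16.5 and 282 CPM against 117 CPM at P0, so the order of the classes was not the same in the 2 libraries. The log2 difference of Id3 at P0 was 1.20 [1.06 to 1.34] and came to 0.49 in cells with at least 2500 genes. In all, 1 gene was higher and 1 lower of 4 tested at E16.5 (3.61% and 3.76% of all genes), and 2 were higher and 1 lower of 5 tested at P0 (5.76% and 4.04%). Bmp2 was 31.5 CPM against 2.18 CPM at P0.

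In epithelial-like cells, which at E16.5 and P0 join epidermis and hair follicle, Id2 was lower than in dermal-like cells at every stage. Epithelial-like cells (207, 876 and 1110 cells) held 46.3, 45.0 and 31.0 CPM of Id2, and the log2 differences were -2.11, -2.18 and -2.74. Msx2 was higher at E13.5 (33.8 against 2.63 CPM) and at P0 (27.1 against 1.94 CPM), with differences of 1.79 [1.52 to 2.06] and 1.63 [1.49 to 1.77]. At E16.5 Msx2 was 6.64 CPM against 0.946 CPM, a difference of 0.60 [0.47 to 0.74]. Msx1 was past 2-fold higher at P0, at 20.7 CPM against 2.33 CPM, and at E13.5 its levels were 10.4 and 1.54 CPM, a difference of 0.82 [0.52 to 1.15]. Id3 was lower at E13.5 (76.6 against 400 CPM), and Id1 lower at E16.5 (77.4 against 180 CPM), a difference of -1.12 that came to -0.95 with cells assigned on their own markers and to -0.98 without the 389 basal cells of clusters with few raised markers. At E13.5 these were 1 gene higher and 2 lower of 6 tested (4.97% and 7.87% of all genes). At E16.5 none was higher and 2 were lower of 5 tested (4.86% and 8.06%), and at P0 2 were higher and 1 lower of 6 (6.19% and 8.17%). The E13.5 class leaves out 295 cells of unnamed epithelial clusters, more than the 207 it holds. Those left out held 170 CPM of Id2, 217 CPM of Id3, 218 CPM of Id1 and 25.7 CPM of Msx2. Their part in the E13.5 differences was not tested. Basal interfollicular-like cells of P0 held 0.24 CPM of Msx1 and 1.68 CPM of Msx2, and suprabasal-like cells 0.57 and 2.26 CPM. The higher Msx levels of P0 thus lay in follicle classes, with Msx1 at 215 CPM in inner root sheath-like cells.

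Periderm is the flat outer layer that covers embryonic epidermis and is later shed. Periderm-like cells held 428 of the 576 Id1 UMIs and 70 of the 78 Msx2 UMIs of epithelial-like cells at E13.5, and 14 of the 107 Id2 UMIs and 43 of the 177 Id3 UMIs. The 84 periderm-like cells held 407 CPM of Id1 [369 to 447], the highest class level of that library, and the 64 basal interfollicular-like cells held 70.0 CPM [50.2 to 94.9]. Their 2 clusters, of 57 and 27 cells, held 392 and 452 CPM. Msx2 was 66.6 CPM [51.9 to 84.1] in periderm-like cells and 8.53 CPM [2.77 to 19.9] in basal cells, and Msx1 rested on 21 UMIs [12.4 to 30.5 CPM]. Id2 and Id3 were the reverse, at 13.3 and 40.9 CPM in periderm-like cells and 95.6 and 154 CPM in basal cells. Periderm-like cells were thus high in Id1 and Msx2 and low in Id2 and Id3.

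Basal interfollicular-like cells, the dividing layer of the epidermis, held 154, 302 and 134 CPM of Id3 over the 3 stages. From E16.5 to P0 the log2 difference was -1.11 [-1.24 to -0.99], the 1 gene past 2-fold where 2.77% of all genes were lower. Without the 389 cells of clusters with few raised markers the E16.5 level was 312 CPM [290 to 335] in 185 cells and the difference -1.16. From E13.5 to E16.5 only Id2 was past 2-fold, from 95.6 to 31.8 CPM (32.8 CPM without those cells), where 4.04% of all genes were lower. The E13.5 class was led by the placode gene Dkk4, and the part of placode cells in this step was not tested. Suprabasal-like cells of P0, which have left the basal layer, held 83.2 CPM of Id1 against 40.4 CPM in basal cells, a difference of 0.89 [0.61 to 1.16]. Id3 was 95.1 against 134 CPM and Id2 22.6 against 32.2 CPM. None of the 3 genes tested was past 2-fold, where 8.39% of all genes were. Between stages, suprabasal-like Id2 was 55.0, 130 and 22.6 CPM and Id3 65.3, 217 and 95.1 CPM. The E16.5 class is 1 cluster of 83 cells led by Cnfn, Psca and Krt6a, with Krt4 and Krt19 of the periderm list beside Krt1 and Krt10 of its own. The 9 periderm markers summed to 2735 CPM in it, against 140 CPM at E13.5 and 35.1 CPM at P0, and no periderm-like class was named at E16.5, so the stages do not hold the same mixture and the part of periderm cells in these levels was not tested. Id2 and Id3 were past 2-fold in both steps, where 8.12% of all genes were higher at E16.5 than at E13.5 and 10.1% lower at P0 than at E16.5. With cells assigned on their own markers the second step of Id2 was -0.82, and with the mean CPM of each cell its first step was 0.63.

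The hair follicle grows from a placode and germ, which later form an outer sheath, a proliferating matrix, an inner root sheath and the hair shaft. At E16.5 Id3 was 474 CPM [441 to 508] in placode or germ-like cells (132 cells), 352 CPM [324 to 382] in follicle sheath-like cells (87 cells) and 302 CPM [291 to 314] in basal interfollicular-like cells. Msx2 was 13.7, 12.6 and 4.06 CPM in the same classes. Follicle-like cells are those named placode or germ-like, follicle sheath-like or matrix-like. Inner root sheath-like and upper follicle-like cells are not among them. Across the follicle-like cells of E16.5, none of 5 genes tested was past 2-fold from basal cells, where 1.9% of all genes were. Id3 differed by 0.44 [0.35 to 0.53] and Msx2 by 0.72 [0.43 to 1.01] (0.40 and 0.59 without the basal clusters with few raised markers). Bmp2 was the ligand gene past 2-fold, at 173 CPM against 71.6 CPM.

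At P0 Msx2 was 31.3 CPM [27.1 to 36.1] in 454 follicle-like cells and 1.68 CPM [0.68 to 3.47] in 337 basal interfollicular-like cells. The 454 cells leave out 61 upper follicle-like cells and 128 inner root sheath-like cells. The latter held 215 CPM of Msx1 and 154 CPM of Msx2. In the comparison without them Msx1 was under 50 UMIs and not tested. Msx2 was the 1 of 5 genes tested past 2-fold, with a log2 difference of 1.82 [1.57 to 2.03], where 2.33% of all genes were higher. Id3 (273 against 134 CPM), Id4 (15.5 against 3.61 CPM) and Id1 (77.4 against 40.4 CPM) were higher by 0.97, 0.91 and 0.79. Id3 and Id4 passed 2-fold under several alternatives, with ranges of 0.77 to 1.34 and 0.87 to 1.84. Within the follicle, Msx2 was 42.1 CPM [35.9 to 49.1] in matrix-like cells and 13.4 CPM [9.10 to 19.0] in follicle sheath-like cells. The 2 matrix-like clusters held 42.2 and 41.9 CPM. Bmp4 was 71.3 CPM in follicle-like cells and 5.77 CPM in basal cells. The dissociation list was 2951 CPM in follicle-like and 8928 CPM in basal cells, with 10 of 16 genes past 2-fold lower, where 3.04% of all genes were, and its part was not tested.

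**Figure D4:**
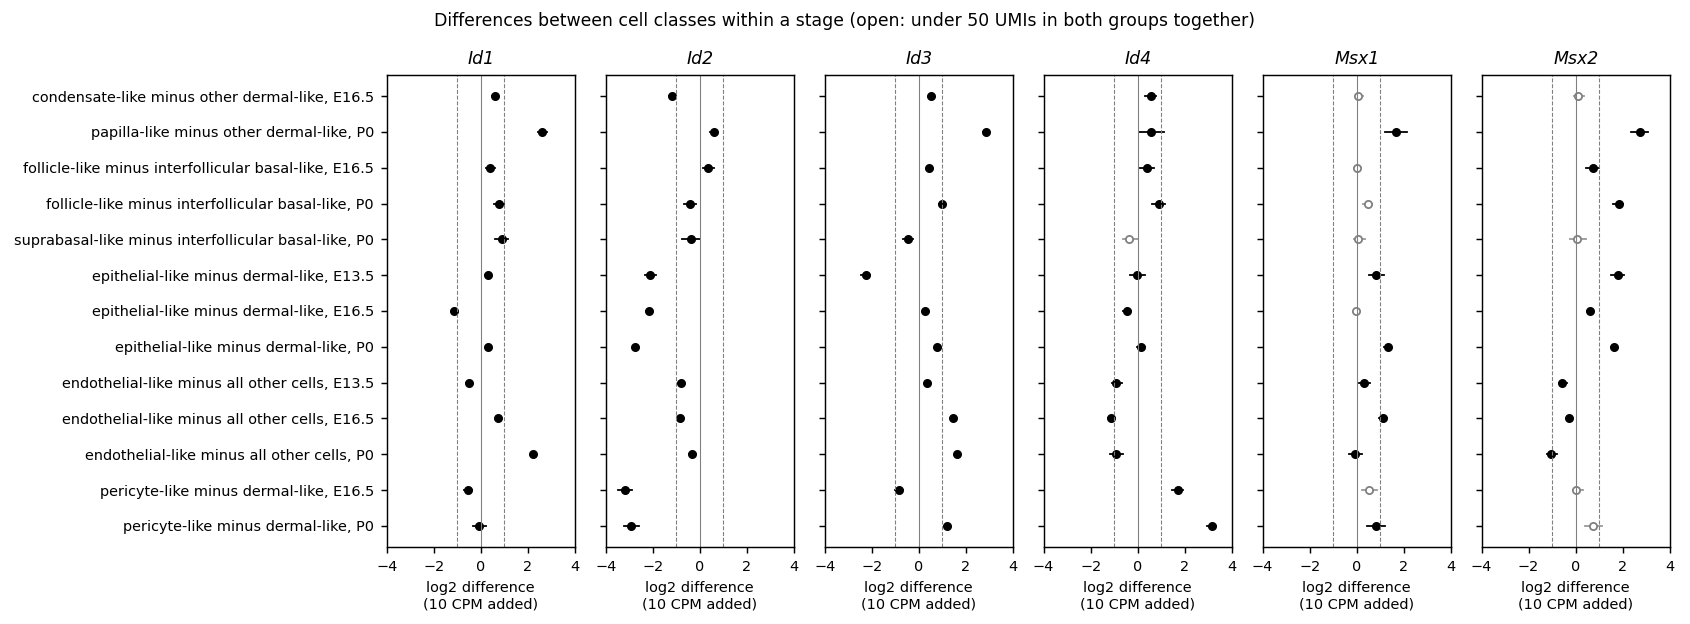
Log2 difference in CPM (10 CPM added) between cell classes of 1 stage for each gene, with 95% intervals combined from the Poisson intervals of both groups, open circles for genes under 50 UMIs and dashed lines at 2-fold. The papilla-like comparison of P0 has Id1 at 2.63, Id3 at 2.87 and Msx2 at 2.72, and the pericyte-like comparison of P0 has Id4 at 3.14.

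Inner root sheath-like cells of P0 (128 cells, led by Krt28, Krt35, Krt25 and Krt71) carried the highest Msx levels of any class. Msx1 was 215 CPM [191 to 242] and Msx2 was 154 CPM [134 to 177] there. Papilla-like cells came next for both, at 29.5 and 68.9 CPM. Basal interfollicular-like cells held 0.24 and 1.68 CPM. The 128 cells held 287 of the 464 Msx1 UMIs and 206 of the 627 Msx2 UMIs of the P0 library. Id3 was 343 CPM [312 to 375], Id1 128 CPM [110 to 149] and Id2 100 CPM [84.2 to 119] in these cells, and in basal cells Id3 was 134 CPM, Id1 40.4 CPM and Id2 32.2 CPM.

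The cluster held cells of more than 1 kind, since Krt35 is a keratin of the hair shaft and Krt25, Krt27, Krt28 and Krt71 are keratins of the inner root sheath. Cells were split by UMIs of Krt35 and of the inner root sheath list without Gata3. That list holds keratins and also Tchh, Padi3 and Crym. In 89 cells with a UMI of that list and none of Krt35, Msx1 was 167 CPM [142 to 196] and Msx2 was 150 CPM [125 to 177]. In 28 cells with UMIs of both, Msx1 was 429 CPM [360 to 508] and Msx2 was 178 CPM [134 to 231]. Msx1 was higher in these 28 cells than in the 89 cells, and the 2 Msx2 intervals overlapped. Id2 was 73.2 CPM [56.6 to 93.1] in the 89 cells and 191 CPM [146 to 245] in the 28 cells. The 2 cells with Krt35 alone held 0 Msx1 UMIs, and the 9 cells with neither held 1, at 10.2 CPM [0.26 to 56.6]. Krt35 was among the leading genes of this cluster, so its name covers differentiating follicle cells with inner root sheath keratins and some shaft keratin.

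Shares of cells with at least 1 UMI were compared after thinning every cell to 3500 UMIs, which left out 1 cell of E16.5. In inner root sheath-like cells 32.8% [24.8 to 41.7, exact binomial interval] had an Msx1 UMI and 41.4% [32.8 to 50.4] an Msx2 UMI, against 46.1% and 68.0% without thinning. Basal interfollicular-like cells had Msx1 in 0 of 337 cells, which allows a share of cells with a UMI of up to 0.89% at this depth and sets no limit on cells that express the gene, and Msx2 in 0.89% (0.30% and 2.08% unthinned). Median depths were 8893 and 8229 UMIs a cell. In papilla-like cells the thinned shares were 60.4% for Id3, 35.4% for Id1, 12.5% for Msx2 and 6.25% for Msx1 (68.8%, 52.1%, 31.2% and 11.5% unthinned). These 96 cells held 744 Id3 UMIs, yet many had none, so Id3 was uneven between them and the class level is a mean of unlike cells. The shares of the dermal-like cells of P0 were 25.3%, 13.3%, 0.62% and 0.82% (36.3%, 22.7%, 1.24% and 1.18% unthinned), at median depths of 7235.5 and 6129 UMIs. For Id4, 25.2% of pericyte-like cells of P0 had a UMI (37.2% unthinned, median 6156.5 UMIs), against 1.19% of basal interfollicular-like cells (2.97% unthinned). Endothelial-like cells had Id3 in 63.4%, 84.3% and 72.9% of cells at the 3 stages (86.5%, 98.0% and 88.6% unthinned), at median depths of 7673, 16540 and 9668 UMIs. Immune-like cells, the class with the lowest Id1 and Id3 levels at E16.5 and P0 apart from Id1 in melanocyte-like cells of E16.5, had Id3 in 12.0% and 7.58% of cells at those 2 stages (27.3% and 24.2% unthinned).

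Papilla-like cells with Id1 often held Id3 too. At the thinned depth 33.3% of the 96 cells had UMIs of both, where the product of the single shares is 21.4%. The product takes the cells of a class as alike, and papilla-like cells were uneven in Id3. The part of this in the joint shares was not tested. For Id1 with Id2 the values were 27.1% and 16.2%. In inner root sheath-like cells 18.8% had both Msx1 and Msx2, where the product is 13.6%. In endothelial-like cells of P0 the shares were 49.0% and 44.6% for Id1 with Id3.

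Among all classes and stages, Id2 was highest in Schwann-like cells, the glia of skin nerves, at P0 (522 CPM [465 to 583]). These cells held 236 CPM of Id2 at E13.5 and 407 CPM at E16.5, and in the same cells Id3 was 507, 349 and 193 CPM. Id2 thus stood higher and Id3 lower at each later stage, with no step past 2-fold. Immune-like cells held 187, 443 and 353 CPM of Id2, and from E13.5 to E16.5 the log2 difference was 1.20 [1.05 to 1.35], the 1 of 3 genes tested past 2-fold where 2.3% of all genes were higher. A cluster of 72 cells at E16.5 led by the mast cell genes Cma1 and Cpa3 and by the antigen presentation genes Cd74, H2-Aa, H2-Ab1 and H2-Eb1 held 1067 CPM, and a macrophage-gene cluster of 137 cells held 198 CPM. At E13.5 the mast cell-gene cluster (123 cells) held 356 CPM of Id2 and the macrophage-gene cluster (172 cells) 94.7 CPM. At P0 the class was 1 cluster of 66 cells, led by the antigen presentation genes Cd74, H2-Aa and H2-Ab1 together with macrophage genes such as Pf4, C1qb and C1qc. Melanocyte-like cells held 193, 92.7 and 349 CPM of Id3, with a log2 difference of 1.81 [1.46 to 2.17] from E16.5 to P0, where 4.01% of all genes were higher. Their Id1 was 103, 25.4 and 34.1 CPM, and the difference of -1.67 from E13.5 to E16.5 was past 2-fold, where 4.12% of all genes were lower. The E16.5 level rests on 17 UMIs in 54 cells [14.8 to 40.7 CPM].

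At E13.5 the library also held cartilage or tendon-like, neural-like, muscle-like and erythroid-like cells. Cartilage or tendon-like cells (365 cells) were high in Id2, at 462 CPM [439 to 486], and held 25.7 CPM of Msx2 and 17.6 CPM of Msx1. Neural-like cells held 47.2 CPM of Id4. Erythroid-like cells (408 cells) held levels near those of the whole library, at 147 against 160 CPM for Id1, 206 against 197 CPM for Id2, 308 against 329 CPM for Id3, 3.18 against 3.71 CPM for Msx1 and 5.65 against 6.41 CPM for Msx2. Whether these are transcripts of the cells or free RNA was not tested. A further cluster of 84 cells led by Fabp7, Sox2 and Hes5, genes of neural progenitors, was left without a name and held 313 CPM of Id4, above every named class in the data.

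The remaining steps between neighbouring stages follow. In endothelial-like cells only Id1 was past 2-fold from E13.5 to E16.5, at 1.16 [1.03 to 1.30], where 2.24% of all genes were higher. Lymphatic-led cells were 225 of the 377 cells at E13.5 and 44 of the 351 at E16.5, and Id1 differed by 0.68 in the blood vessel-type clusters and by 0.69 in the lymphatic-led ones, under 2-fold in each. No gene was past 2-fold from E16.5 to P0 (5.7% of all genes in either direction). In pericyte-like cells Id1 was lower at P0 than at E16.5 by 2-fold, at 53.1 against 122 CPM, where 3.82% of all genes were lower (-0.65 in cells with at least 2500 genes), and Id4 (0.99 [0.72 to 1.26]) and Id3 (0.92 [0.72 to 1.12]) were higher by just under 2-fold. No gene was past 2-fold in dermal-like cells from E13.5 to E16.5 (3.97% of all genes), in follicle-like (5.79%) or immune-like cells (8.51%) from E16.5 to P0, or in Schwann-like cells in either step (4.94% and 9.05%).

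Over the 36 groups of a class and a stage with at least 50 cells, the log2 levels of Msx1 and Msx2 were correlated at a Pearson r of 0.78, the highest among the 15 pairs of the 6 genes. Id1 and Id3 followed at 0.42. Id2 had no pair above 0.18 and Id4 none above 0.15. These values describe the groups, of which those of 1 stage share a library and its depth. Among 7026 genes the closest to Msx1 were Mt4, Msx2, Krt35, Krt25 and Krt28, with Mt4 at 0.81, and the closest to Msx2 were Msx1, Dlx3, Mt4, Krt35 and Krt27. Msx1 was 215 CPM in inner root sheath-like cells of P0 and at most 29.5 CPM in any other group. Mt4, Krt35, Krt25 and Krt28 are among the leading genes of that same cluster. The weight of this 1 group in the Msx correlations was not tested. The closest genes to Id4 were Rbpms2 (0.75), Atp1b2, Rasl12, Gjc1 and Actg2. For Id1 the closest were Trim16 (0.78), Prom1, Yes1, B4galt4 and Tspan9, for Id2 Tmem214 (0.76), Tor2a, Timp2, Tmem119 and Plscr1, and for Id3 Igf1r (0.73), Ephb4, Hoxd4, Slc39a14 and Pxdn.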

How the data were processed

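Single cells of pooled male C57BL/6 back skin were sequenced as 1 droplet library per stage. The authors aligned and counted reads with Cell Ranger (2.2.0 and build mm10 in the submitters' notes), kept cells with at least 1750 genes and deposited natural log values of 1 plus UMIs per 10000 UMIs of the cell. The deposited values cover more cells at each stage than the authors report after their quality filters, and all of them were used here. All 48197283 values above 0 came back as whole UMIs within 0.001. Each library was clustered with scanpy 1.11.5 and Leiden (2000 variable genes, 30 components, resolution 1) without the 6 genes and the pathway genes. The rule that turns markers into class names was set after the clusters had been seen. Basal interfollicular-like alone needed no raised markers. Genes with at least 50 UMIs in both groups together were compared. Genes named besides the 6 are the 4 highest and 4 lowest pathway genes of a comparison, the 5 most correlated genes, and others chosen after their values were seen. 1 gene that this rule names is not reported here. Scrublet marked 0, 84 and 106 cells as doublets, which were kept, and it did not work at E13.5. The members and lists were chosen with earlier results of these data known. The 2-fold call was tried on real dermal-like cells of P0 split at random, with the counts of some genes thinned in 1 part. No other calculation was tried this way, and the outcome is not given here. Alternatives are given in the closing section.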

Additional observations from a re-analysis of the deposited data

How the results depend on the processing

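Counts of the 6 genes past 2-fold were recomputed under 11 alternatives, 2 of them chosen after seeing the data (dermal clusters left unnamed put back into the dermal-like class, and basal interfollicular-like clusters of E16.5 with few raised markers left out, where a comparison holds them). Of 295 recomputed counts 257 stayed the same or within 1.5 times. The papilla-like count of P0 is among them, although with classes set per cell it is made of other genes (Msx1 at 0.80, Id2 at -1.43). Neither putting the dermal clusters back nor letting the members and pathway genes into the clustering moved a count. Putting the dermal clusters back could change only comparisons that hold the dermal-like class. Removing doublets could not change comparisons within E13.5, where none was marked. The 257 hold such counts, which could not move. The other 38 were as follows, and the cause was not tested. Follicle-like against basal at P0 went from 1 to 2 with resolution 0.5, 4000 variable genes or cells of at least 2500 genes, and to 3 with resolution 2, classes set per cell or 1 CPM added. Immune-like E16.5 minus E13.5 went from 1 to 2 with resolution 0.5, 4000 variable genes, classes set per cell, doublets removed, the mean CPM of each cell or 1 CPM added. Endothelial-like at E13.5 went from 0 to 1 with resolution 2 or classes set per cell and to 2 with 1 CPM added. Pericyte-like P0 minus E16.5 went from 1 to 2 with 4000 variable genes, doublets removed or 1 CPM added, to 3 with the mean CPM and to 0 with at least 2500 genes. With classes set per cell, condensate-like at E16.5 went from 1 to 0, epithelial-like at E16.5 and suprabasal-like P0 minus E16.5 from 2 to 1, and Schwann-like E16.5 minus E13.5 and follicle-like P0 minus E16.5 from 0 to 1. Leaving out the basal clusters took epithelial-like at E16.5 from 2 to 1 as well. Suprabasal-like E16.5 minus E13.5 went from 2 to 1 with 4000 variable genes or the mean CPM. Dermal-like P0 minus E16.5 went from 2 to 0 with at least 2500 genes. Melanocyte-like E16.5 minus E13.5 went from 1 to 2 with doublets removed, the mean CPM or 1 CPM added, and the mean CPM also took endothelial-like E16.5 minus E13.5 and melanocyte-like P0 minus E16.5 from 1 to 2. Adding 1 CPM took follicle-like at E16.5, suprabasal-like at P0 and immune-like P0 minus E16.5 from 0 to 1 and follicle-like P0 minus E16.5 from 0 to 2. Of single log2 differences past 2-fold 2 turned direction, both with classes set per cell in papilla-like P0 minus condensate-like E16.5 (Id2 at -0.75, Id3 at -0.21). Of differences under 2-fold 37 changed sign, among them Id1 in the same comparison (0.52 to -0.97) and Id2 in papilla-like cells of P0 (0.59 to -1.43). A further 22 fell short of 2-fold and 46 passed it anew. Not run, because a class held under 50 cells, were basal and suprabasal E16.5 minus E13.5 with resolution 2, classes set per cell or at least 2500 genes, and melanocyte-like E16.5 minus E13.5 and immune-like and Schwann-like P0 minus E16.5 with at least 2500 genes. No paired analysis was possible because each stage has 1 library. Low counts limit Msx1 and Msx2 outside the follicle.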

Other observations

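Unnamed epithelial clusters of P0 differed in the Id genes. A cluster of 115 cells led by Cyp2g1, Mgst1, Cidea and Scd1, the latter 2 known from lipid metabolism, held 73.2 CPM of Id3. A cluster of 178 cells led by Prss35, Rasl11a and Mycn held 347 CPM of Id3. A cluster of 20 cells led by Sfrp1 and Shisa2 held 165 CPM of Id4. These cells belong to no comparison above, and adipocyte-like cells of P0 (45 cells, under the 50 needed for a comparison) held 238 CPM of Id1 [204 to 277].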
